A study of Mus musculus with 1187 samples.

Results

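Notch signalling was described in single brain endothelial cells through 9 genes, chosen by name from the 46517 rows of the deposited count table. They comprised the receptors Notch1 and Notch4, the ligands Dll4, Jag1 and Jag2, and the transcriptional targets Hey1, Hey2, Hes1 and Nrarp. All 9 had reads, and 8 of them reached 20 CPM, a gene's reads scaled to the reads of the whole library, over all cells; Hey2 did not. The study concerned endothelium of brains short of pericytes, the contractile support cells of capillaries. Its labels name 597 cells from Pdgfb ret/ret mice and 590 cells from Pdgfb ret/+ mice, both C57BL/6 adults of 3 months, and every mouse also carried the Cldn5-GFP and Cspg4-DsRed reporters. The ret allele lacks the part of PDGF-B that holds the growth factor close to the endothelial cell. Its loss from both copies leaves brain vessels short of pericytes throughout life, whereas Pdgfb ret/+ mice keep 1 normal copy and served as controls.

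Cells positive for the endothelial Cldn5-GFP and negative for the mural Cspg4-DsRed were sorted singly into wells, and full-length cDNA was sequenced by Smart-seq2, which has no molecular identifiers. No label names an animal, and the deposited columns carry only a plate and a well as their name, so the genotype of a column is not known. The 1187 cells were therefore handled as 1 pooled sample, with the plate (521, 522, 523 or 524) as batch. Values are given plate by plate, plates were not grouped, and with 1 sample there was no test. Differences between plates may come from genotype, animal or handling, which cannot be told apart here. Intervals in the text are exact 95% limits that cover counting error only, and the spread between plates is the better guide to error.

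In Notch signalling a ligand on 1 cell binds a receptor on its neighbour, the receptor is cut by ADAM proteases and gamma-secretase, and its intracellular part joins the DNA-binding protein RBPJ to switch on target genes. In vessels, DLL4 and NOTCH1 restrain the number of sprouting tip cells and maintain arterial identity. JAG1 can oppose DLL4 during sprouting, and NOTCH4 is largely endothelial. HEY1, HEY2 and HES1 are repressors of the basic helix-loop-helix class, and NRARP is a feedback inhibitor of the pathway.

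The genes lie on 6 chromosomes of GRCm38 (GENCODE M21 annotation), and reads were counted over their exons. Notch1 (chr2:26457903-26516663, minus strand) and Notch4 (chr17:34564268-34588503, plus strand) are the receptors. Dll4 (chr2:119325784-119335962, plus), Jag1 (chr2:137081456-137116644, minus) and Jag2 (chr12:112907819-112929776, minus) are the ligands. Hey1 (chr3:8663359-8667256, minus), Hey2 (chr10:30832359-30842801, minus), Hes1 (chr16:30064384-30067796, plus) and Nrarp (chr2:25180758-25183339, plus) are the targets. The exons of Nrarp overlap an antisense gene, Gm38287, over 2051 of their 2582 bases, and the 2 rows had an r of 0.995 across cells, so their reads could not be told apart. Smaller antisense overlaps touched Notch1 (0610009E02Rik over 1068 bases, Gm13568 over 414 bases) and Dll4 (Gm14207 over 214 bases).

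Promoter windows of 300 bases, from 250 before to 50 after the annotated start, were read from RefSeq (GRCm38.p6) for 7 of the 9 genes, all but Hes1 and Hey1. Because members that are targets of RBPJ were followed in the same cells as the ligands, each window was searched on both strands for GTGGGAA, a core sequence that RBPJ binds, and for CACGTG, the palindromic E-box bound by Hes and Hey proteins. GTGGGAA occurred in Hey2 alone among the 7, with 1 match on each strand, at 207 and 4 bases before the start. CACGTG occurred in Nrarp alone, 108 bases before the start. The windows of Notch1, Notch4, Dll4, Jag1 and Jag2 held neither sequence. Of 32851 mouse windows of the same length, 6.38% held GTGGGAA, 0.256% held it at least 2 times, and 7.15% held CACGTG. A match describes letters in this window and not a bound site. The windows with a match, and that of Dll4 for comparison because, apart from Hey2, it most exceeded the expected number of cells shared with Hey1, are shown 5′ to 3′ on the gene's strand with matches in capitals (TTCCCAC is GTGGGAA read on the other strand).
Hey2 (chr10:30842734-30843033, minus strand): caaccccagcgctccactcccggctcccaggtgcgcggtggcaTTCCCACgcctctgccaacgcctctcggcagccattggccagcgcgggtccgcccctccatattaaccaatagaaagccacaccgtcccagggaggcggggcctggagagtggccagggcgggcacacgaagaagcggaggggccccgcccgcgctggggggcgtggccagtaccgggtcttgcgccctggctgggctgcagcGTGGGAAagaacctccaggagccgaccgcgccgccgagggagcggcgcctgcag
Nrarp (chr2:25180508-25180807, plus strand): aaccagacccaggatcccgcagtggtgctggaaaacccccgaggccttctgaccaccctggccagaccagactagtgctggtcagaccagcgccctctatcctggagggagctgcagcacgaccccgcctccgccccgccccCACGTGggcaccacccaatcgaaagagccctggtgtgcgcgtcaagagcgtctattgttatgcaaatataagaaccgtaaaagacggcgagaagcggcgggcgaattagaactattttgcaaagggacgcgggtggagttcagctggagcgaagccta
Dll4 (chr2:119325534-119325833, plus strand): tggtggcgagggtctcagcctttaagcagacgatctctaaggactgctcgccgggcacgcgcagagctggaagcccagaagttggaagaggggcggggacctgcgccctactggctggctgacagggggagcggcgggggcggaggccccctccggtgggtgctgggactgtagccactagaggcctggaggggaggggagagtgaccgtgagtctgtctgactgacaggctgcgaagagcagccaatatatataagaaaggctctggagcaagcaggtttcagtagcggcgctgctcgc

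The cells held 100779 to 584112 reads (median 360947), with plate medians of 349606.5 to 373443.5 reads. Median genes per cell ran from 4048 on plate 523 to 5118.5 on plate 521. All 6 endothelial markers were above 20 CPM, led by Cldn5 at 4038 CPM, and their summed level ran from 9824 to 11794 CPM over the plates. Of the other cell types, 1 of 6 pericyte markers (Rgs5, 32.4 CPM) and 1 of 6 astrocyte markers (Gja1, 185 CPM) reached 20 CPM, and none did of the smooth muscle, microglia, oligodendrocyte, neuron, fibroblast and erythroid lists. No marker was at 0. Summed pericyte markers were 20.4, 24.7, 131 and 80.5 CPM on plates 521, 522, 523 and 524. Zonation markers also moved with plate. In the same plate order, summed venous markers stood at 2841, 2222, 966 and 904 CPM, angiogenic markers at 1422, 878, 194 and 159 CPM, capillary markers at 5376, 7005, 9912 and 9556 CPM, and arterial markers at 701, 646, 593 and 559 CPM. Their part in the plate values of the Notch genes was not tested.

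Both receptors were common. Notch1 stood at 266 CPM over all cells and at 253, 244, 282 and 283 CPM on plates 521 to 524. After each cell was thinned to 100000 reads, 73.5% of cells had a Notch1 read (70.9% to 76.0%; plates 69.3% to 79.3%). Notch4 stood at 137 CPM, with 87.9, 123, 164 and 172 CPM on the 4 plates, lowest on plate 521. A Notch4 read was found in 58.6% of cells at the fixed depth (55.8% to 61.5%), against 65.2% without thinning.

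The 3 ligands were read in similar shares of the cells. Dll4, the ligand of tip and arterial cells, stood at 222 CPM (203, 248, 253 and 186 CPM on plates 521 to 524) and was read in 56.1% of cells. Jag1 stood at 117 CPM, with 146, 104, 99.3 and 117 CPM on the plates, and was read in 47.6% of cells. Jag2 stood at 113 CPM, with 83.1, 102, 121 and 146 CPM, and was read in 52.6%. Jag1 was thus highest and Jag2 lowest on plate 521, and per kilobase of exon Jag1 was above Jag2 on plates 521 and 522 and below it on plates 523 and 524. The highest single cells reached 2922 CPM for Dll4, 2137 CPM for Jag1 and 1858 CPM for Jag2.

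The 4 targets differed widely. Hes1 stood at 177 CPM, with 158, 147, 253 and 152 CPM on plates 521 to 524, and was read in 63.9% of cells. Plate 523 stood above the others, also in the share of cells with a read (75.4%, against 58.6% to 63.1%). Hey1 stood at 96.2 CPM, with 67.9, 58.1, 145 and 112 CPM on the plates, but was read in only 23.8% of cells (21.4% to 26.4%). In cells with a read the median Hey1 level was 327 CPM, and the 10% of cells with the most Hey1 reads held 73.8% of them.

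Nrarp stood at 22.2 CPM, with 24.7, 27.1, 20.3 and 17.1 CPM, and was read in 14.2% of cells, with 95.0% of its reads in the top 10% of cells. Hey2 was nearly absent. It had 474 reads in all, 158, 238, 2 and 76 on plates 521 to 524, and was read in 10 of 1187 cells at the fixed depth (0.842%). Per kilobase of exon, which makes levels comparable between genes, the order was Hes1 (87.0 CPM per kb), Dll4 (57.6), Hey1 (29.5), Jag1 (20.1), Notch1 (18.7), Notch4 (16.9), Jag2 (16.3), Nrarp (8.61) and Hey2 (0.246). The plate ranges of neighbours in this order overlapped from Hey1 to Jag2, so the order of these 5 is not fixed beyond that spread.

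**Figure D1:**
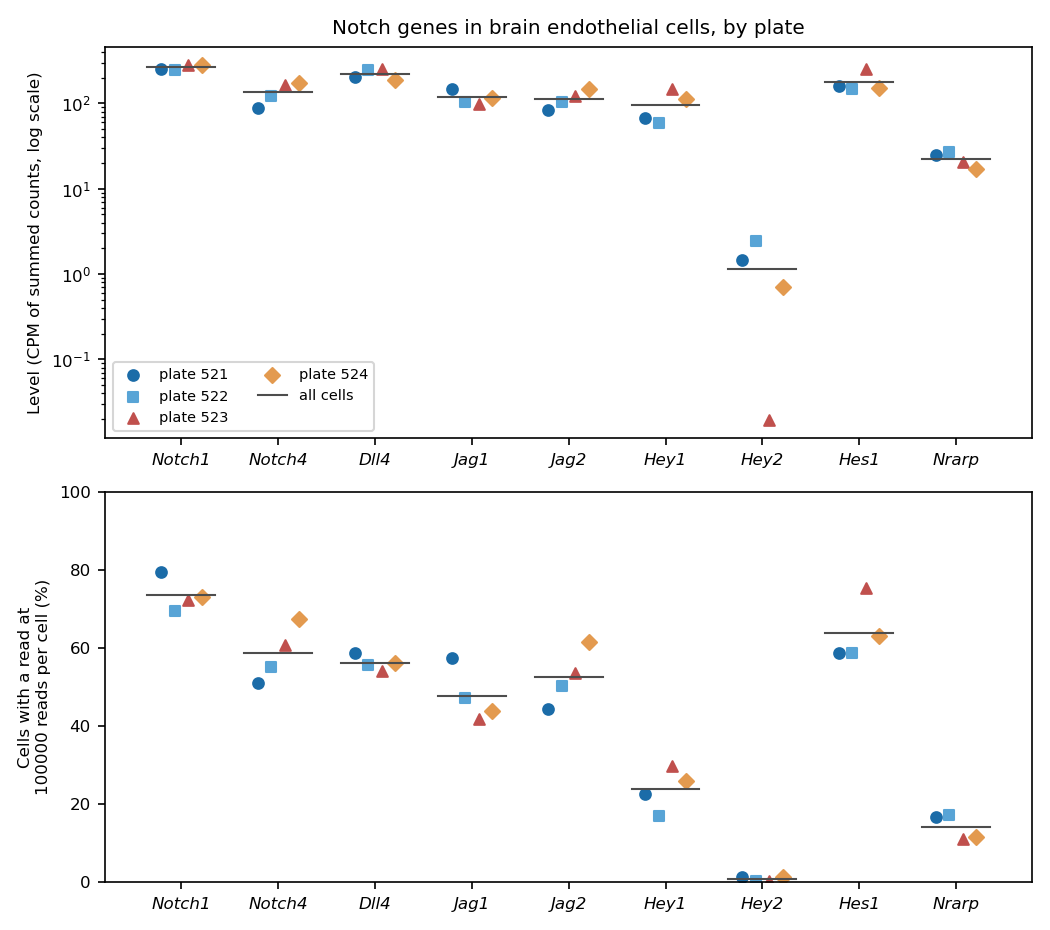
Level (CPM of summed counts, log scale, top) and share of cells with a read at 100000 reads per cell (percent, bottom) of the 9 Notch genes; points are plates 521 to 524 and the line is all 1187 cells. Hey1 and Hes1 are highest on plate 523, Notch4 and Jag2 are lowest on plate 521, and Hey2 is near 1 CPM.

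Of the 9 genes, 2 were at least 2-fold apart between their highest and lowest plate, with a prior of 1 CPM. They were Hey1 (145 CPM on plate 523 and 58.1 CPM on plate 522, log2 ratio 1.31) and Hey2, whose ratio of 1.74 rests on the prior and on 10 cells. Among all genes at 20 CPM or more, 11.8% were 2-fold apart, with a median log2 ratio of 0.511. Of the 8 Notch genes at that level, 1 was, and their median log2 ratio was 0.71, with 6 of the 8 above the median of all genes. Notch4 reached a log2 ratio of 0.96, Jag2 0.80, Hes1 0.78, Nrarp 0.63, Jag1 0.55, Dll4 0.44 and Notch1 0.21. Without plate 523 the count was 1 of 9, Hey2 alone, with Hey1 at a log2 ratio of 0.94.

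The cells were then divided by zonation, the graded change of endothelium along artery, capillary and vein. Clusters were made from 2000 variable genes without the 9 Notch genes and without the other pathway genes listed. The antisense genes that overlap Nrarp, Notch1 and Dll4 were not left out of the candidates. Independence of the Notch values from the clusters is therefore not assured, least of all for Nrarp. A cluster of 159 cells was arterial-like (14 of 14 arterial markers at least 1.5-fold higher than in all other cells, with Fbln5 and Mgp among its leading genes). Another of 83 cells was angiogenic-like (10 of 10 detected markers, such as Mcam and Lamb1), and immune genes (Ccr7, Ighd, Ighm) and the erythroid marker Alas2 were among its leading genes. A further one of 119 cells was venous-like (8 of 9 detected markers, such as Ackr1 and Il1r1). Clusters 0, 2 and 3 (234, 126 and 113 cells) had all 10 capillary markers higher by any amount but none of them among their leading genes, and are called capillary-marker. In cluster 0, 4 of 4 detected microglia markers and 2 of 3 pericyte markers and 2 of 2 smooth muscle markers were at least 1.5-fold higher. In cluster 3, cell cycle genes (Mki67, Top2a) and the pericyte marker Vtn were among the leading genes, and 4 of 4 fibroblast, 2 of 4 pericyte and 2 of 2 erythroid markers were at least 1.5-fold higher. The part of these other markers in the values below was not tested. The other 353 cells stayed unnamed.

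Arterial-like cells had more Notch ligand and receptor transcripts than venous-like cells. Of the 9 genes, 6 were at least 2-fold higher and 0 were at least 2-fold lower, with a median log2 ratio of 1.33. Among genes outside the clustering set with 20 CPM or more on either side, 6.41% were higher and 5.70% lower, with a median of -0.0013. A higher median for Notch genes in arterial-like cells was already known from earlier work on these data and is not independent support. Each of the 6 except Hey2 was higher in arterial-like cells on all 4 plates. How many other genes kept 1 direction on all plates, or had plate ranges that did not overlap, was not counted, here or below.

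Hey1 separated these classes most. Its level in arterial-like cells was 340.1, 226, 420.5 and 305 CPM on plates 521 to 524, against 0, 11.9, 14.7 and 13.1 CPM in venous-like cells. The ranges did not overlap, and the pooled levels of 320.2 and 11.2 CPM gave a log2 ratio of 4.72. At the fixed depth Hey1 was read in 102 of 159 arterial-like cells (64.2%) and in 6 of 119 venous-like cells (5.04%). The arterial-like class held 13.4% of all cells and 46.4% of all Hey1 reads.

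The ligands followed. Jag2 had 384, 334, 235 and 286 CPM in arterial-like cells of the 4 plates, against 30.3, 48.6, 50.5 and 77.5 CPM in venous-like cells, with a pooled log2 ratio of 2.40. Jag1 had 438, 303, 255 and 230.2 CPM in arterial-like cells, against 136, 51.2, 94.9 and 61.4 CPM in venous-like cells (1.92). Dll4 had 169, 194, 349 and 234 CPM in arterial-like cells, against 76.6, 93.9, 136 and 89.2 CPM in venous-like cells (1.28). For each ligand every arterial-like plate value lay above every venous-like one, with no share of other genes counted for comparison.

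Of the receptors, Notch4 had 196, 218, 299.5 and 255 CPM in arterial-like cells, against 42.6, 107, 102 and 109 CPM in venous-like cells (log2 ratio 1.33). Notch1 stood at 307 CPM in arterial-like and 165 CPM in venous-like cells, a log2 ratio of 0.89 that stayed under the 2-fold limit (0.66 to 1.07 over plates). Hey2 was read in 6 arterial-like cells and 1 venous-like cell, and its plate ratios ran from -0.29 to 3.96.

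The other 2 targets did not divide artery from vein. Hes1 stood at 176 CPM in arterial-like and 165 CPM in venous-like cells (log2 ratio 0.10; plates -0.32 to 0.81), and its share of cells with a read was 65.4% in arterial-like and 68.1% in venous-like cells. Nrarp stood at 23.3 CPM in arterial-like and 17.1 CPM in venous-like cells, with plate ratios from -1.63 to 1.87. Hes1 was at 261 CPM in arterial-like, 254 in angiogenic-like, 262 in venous-like and 266 in capillary-marker cells of plate 523, so its high value there was found in each of the 4 classes.

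**Figure D2:**
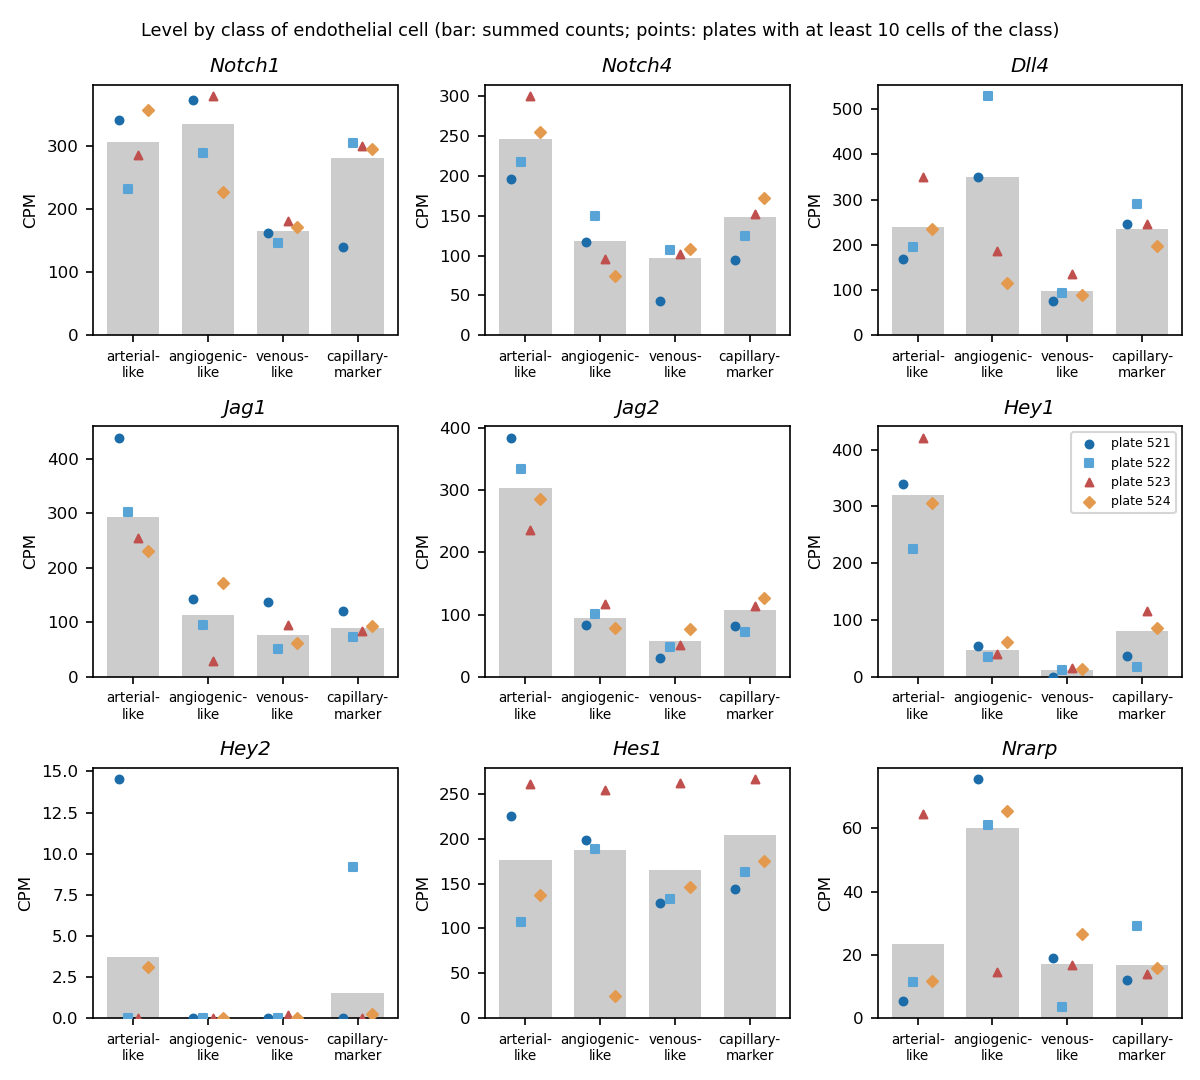
Level of each Notch gene (CPM, linear axis from 0) in arterial-like, angiogenic-like, venous-like and capillary-marker cells; bars are summed counts and points are plates with at least 10 cells of the class. Hey1, Jag1 and Jag2 are highest in arterial-like cells (320.2, 293 and 303 CPM), Dll4 and Nrarp in angiogenic-like cells (351 and 59.9 CPM), and Hes1 lies between 165 and 204 CPM in all 4 classes.

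Set against capillary-marker cells, arterial-like cells had 3 of 9 genes at least 2-fold higher and 0 lower (5.06% and 3.19% of other genes). These were Hey1 (320.2 against 80.7 CPM, log2 ratio 1.98), Jag1 (293 against 90.0 CPM, 1.69) and Jag2 (303 against 108 CPM, 1.48), each higher on 4 of 4 plates. Against cluster 0 alone 3 genes were at least 2-fold higher and 0 lower (6.40% and 3.94% of other genes), against cluster 2 alone 5 and 0 (7.34% and 4.84%), and against cluster 3 alone 4 and 0 (7.02% and 4.90%). The added genes were Hey2 against clusters 2 and 3, at 3.71 against 0 CPM, and Nrarp against cluster 2, with plate ratios from -1.36 to 3.68. The shares of other genes cover genes at 20 CPM or more on either side, which Hey2 did not reach. Hey1, Jag1 and Jag2 were at least 2-fold higher than in each of these clusters, of which Jag1 had 91.3, 75.5 and 102 CPM and Jag2 97.2, 123 and 115 CPM. Dll4 stood at 240.1 CPM in arterial-like and 235 CPM in capillary-marker cells, with plate ratios of both signs (-0.57 to 0.50). Without plate 522 the clusters were redrawn with 58 arterial-like cells, and 5 of 9 genes were at least 2-fold higher. Venous-like cells had 0 genes at least 2-fold higher than capillary-marker cells and 3 lower (3.68% and 2.37% of other genes). Those were Hey1 (11.2 against 80.7 CPM, -2.74), Dll4 (98.6 against 235 CPM, -1.24) and Hey2, whose ratio rests on 1 and 3 cells with a read. Jag2 was also lower in venous-like cells, at 56.7 against 108 CPM (-0.92; -1.41 to -0.55 over plates), short of the 2-fold limit.

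Against capillary-marker cells, angiogenic-like cells had 1 gene at least 2-fold higher and 1 lower, with a median log2 ratio of -0.12. Nrarp was the 1 gene at least 2-fold higher than in capillary-marker cells (4.16% of other genes), at 59.9 against 16.7 CPM (log2 ratio 1.78). On plates 521 to 524 it had 75.3, 61.1, 14.7 and 65.4 CPM in angiogenic-like cells, against 12.0, 29.1, 13.8 and 15.8 CPM in capillary-marker cells. On plate 523 the log2 ratio was 0.08, from 1 angiogenic-like cell with a read at the fixed depth. Dll4 stood at 351 CPM in angiogenic-like and 235 CPM in capillary-marker cells (0.58), higher on plates 521 and 522 and lower on plates 523 and 524, where the class had 13 and 10 cells. Hey2 was lower (2.83% of other genes), with 0 reads in angiogenic-like cells, which allows up to 0.0952 CPM, against 1.54 CPM and 3 cells with a read in capillary-marker cells. Arterial-like cells had 5 of 9 genes at least 2-fold higher than angiogenic-like cells and 1 lower (7.83% and 6.64% of other genes). Among the 5 was Hey2, at 3.71 against 0 CPM, which is under the 20 CPM asked of the other genes. The lower one was Nrarp, at 23.3 against 59.9 CPM (-1.32), with plate 523 going the other way.

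The same was described without clusters. Each gene's log2(CPM + 1) was correlated over 1187 cells with the mean of each marker list, after centring on the plate. The cells share plates and differ in genes per cell, with which the 9 genes had an r of 0.04 to 0.21, so these values carry no p. With arterial markers, 5 of 9 genes reached an r of 0.2 (1.80% of genes at 20 CPM or more): Hey1 at 0.46 (0.35 to 0.59 over plates), Jag2 at 0.36, Jag1 at 0.31, Hey2 at 0.24 and Notch4 at 0.24. The value of Hey2 rests on 10 cells, ran from -0.02 to 0.48 over plates and was 0.12 without plate 521, which left 4 of 9 genes. Notch1 had 0.14, Dll4 0.10, Hes1 0.05 and Nrarp 0.01. By Spearman's rho on the same plate-centred values, 2 of 9 did (Hey1 0.30, Jag2 0.24). Centring gives the zeros of each plate a different value, so the ranks of genes with many zeros partly follow plate. Hey2 with fibroblast markers, for example, had a rho of 0.55 against an r of 0.01. The count by rho is therefore not a rank result within plates. Dll4 was highest with angiogenic markers (0.21; plates 0.02 to 0.32), whereas Jag1 and Jag2 were highest with arterial ones. Dll4 was lowest with venous markers (-0.23; plates -0.29 to -0.19), as was Jag2 (-0.16). Nrarp was highest with angiogenic markers (0.19). With the 8 lists of other cell types, r ran from -0.08 to 0.13.

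**Figure D3:**
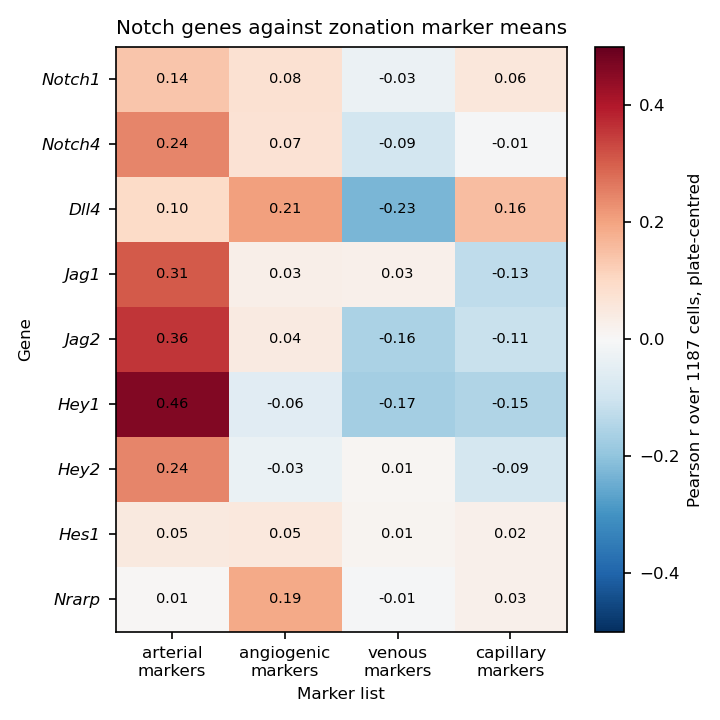
Pearson r over 1187 cells, centred on plate, between each Notch gene (rows) and the mean of the arterial, angiogenic, venous and capillary marker lists (columns). Hey1, Jag2 and Jag1 have the highest values with arterial markers (0.46, 0.36 and 0.31), and Dll4 has 0.21 with angiogenic and -0.23 with venous markers.

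Cells were then counted by which kinds of Notch gene they held. At 100000 reads, 706 of 1187 cells (59.5%; 56.6% to 62.3%; plates 53.4% to 64.9%) had at least 1 ligand, 1 receptor and 1 target. Any ligand was read in 87.7% of cells, any receptor in 86.1% and any target in 74.4%, and 18 cells had none of the 9 genes. From these shares within plates 667 cells (56.2%) were expected to hold all 3 kinds, so the observed number was 1.06 times the expected one. In arterial-like cells 78.6% had all 3 kinds, in angiogenic-like cells 78.3%, in venous-like cells 48.7% and in capillary-marker cells 55.8%. A single cell had all 9 genes, and it held 9938 genes in 155970 reads, over 2 times the median number of genes.

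For each of the 36 pairs, cells with both genes were counted and set against the number expected from the 2 shares within each plate. The count was at least 1.2 times the expected one in 8 of 36 pairs, 4 of which include Hey2 and rest on its 10 cells. Of the 28 pairs without Hey2, 4 were, against 5.88% of all pairs of genes in the same range of shares. By level, 2 of the 28 pairs (Jag2 and Dll4, each with Hey1) had a plate-centred r of 0.2 or more, against 0.129% of gene pairs. The median ratio was 1.08 for these 28 pairs and 1.06 for all such gene pairs, and 27 of 28 exceeded 1. The share of all such gene pairs above 1 was not counted, but with that median most of them exceed 1 as well. Of the 4 pairs at 1.2 or more, 3 involved Hey1. Dll4 and Hey1 were read together in 213 cells, with 158 expected (ratio 1.34; 1.33, 1.36, 1.28 and 1.41 on plates 521 to 524), and 75.3% of cells with Hey1 had Dll4, against 50.1% of cells without Hey1. Jag2 and Hey1 shared 198 cells, with 150.3 expected (1.32; plates 1.16 to 1.62). Notch4 and Hey1 shared 211, with 168 expected (1.26; plates 1.16 to 1.44). The same limit was passed with Hey1 by 10.0% of other genes, and by ratio Dll4 ranked 149 and Jag2 188 of 7764.

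With Dll4, 0.219% of other genes were read at 1.2 times the expected number of cells or more. Among 7764 genes Hey1 ranked 3 and Nrarp 7, while Notch4 ranked 701 and Notch1 1585. The ratio has a lower ceiling for a gene read in more cells, and Dll4 was read in 56.1% and Hey1 in 23.8%. The percentages passing with Dll4 and with Hey1 are therefore not comparable. By r of the levels with Dll4, over 10020 genes, Hey1 ranked 6, Notch4 16, Notch1 33 and Nrarp 177. Dll4 and Nrarp shared 116 cells, with 94.6 expected (1.23; plates 1.04 to 1.34), with the reservation that reads of Nrarp and Gm38287 cannot be told apart. The targets Hey1 and Nrarp were not read together above expectation. Hey1 and Nrarp shared 36 cells, with 38.7 expected, the lowest ratio of the 28 at 0.93, and it was 1.06, 0.24, 1.36 and 0.96 on the 4 plates. Dll4 and Jag1 were close to the expected number (321 cells, 318 expected). Hes1 had ratios between 1.01 and 1.13 with each of the other 7 genes, the lowest with Notch4. When the expected number was taken within plate and cluster, 1 of the 28 pairs reached 1.2, Dll4 and Hey1 (1.25), and Jag2 and Hey1 stood at 1.11. This setting was added after the data had been seen, and the share of all gene pairs at 1.2 or more was not counted for it.

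**Figure D4:**
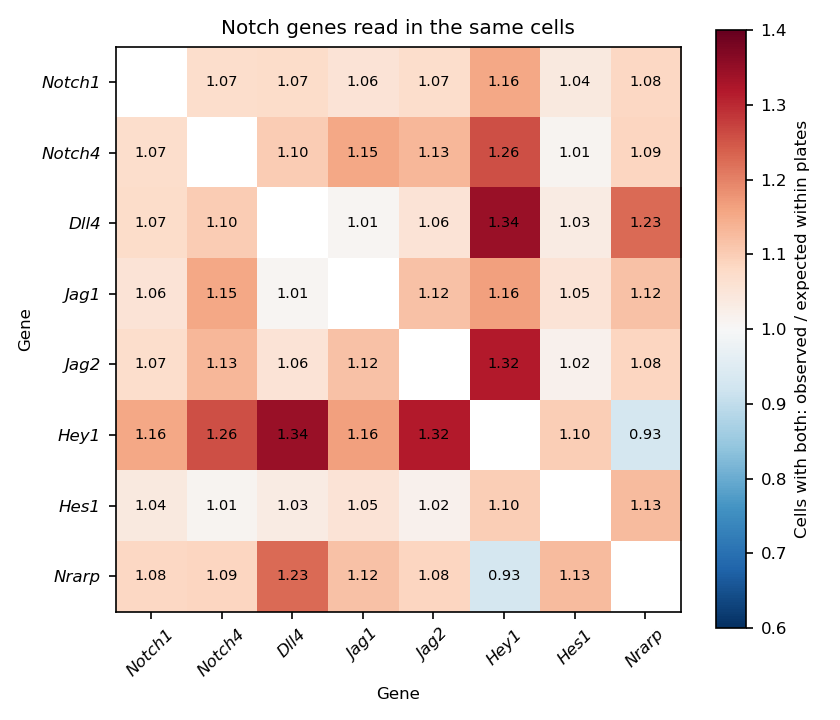
Cells with a read of both genes divided by the number expected within plates, for the 28 pairs of 8 Notch genes (Hey2, read in 10 cells, is left out). Hey1 with Dll4 (1.34), Jag2 (1.32) and Notch4 (1.26), and Dll4 with Nrarp (1.23), are the pairs at 1.2 or more, and Hey1 with Nrarp is lowest (0.93).

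Cells that read more ligand genes also more often read the receptors and Hey1. Of Dll4, Jag1 and Jag2, 146 cells had none, 431 had 1, 406 had 2 and 204 had 3. In that order Hey1 was read in 8.90%, 16.5%, 25.1% and 47.5% of cells, and outside the arterial-like class in 7.80%, 14.8%, 18.3% and 34.3%. Notch4 was read in 39.0%, 51.3%, 61.1% and 83.3%, and Notch1 in 55.5%, 70.5%, 76.6% and 86.8%. Nrarp had 7.53%, 12.8%, 14.8% and 20.6%. Hes1 was nearly flat, at 59.6%, 59.9%, 67.7% and 67.6%. Median genes per cell moved with the number of ligands (4208, 4307, 4561 and 4964.5), and its part in these shares was not tested.

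The share of cells with Hey1 also differed by which ligand was read. Cells with Dll4 alone had Hey1 in 26.1% of 180 cells, cells with Jag2 alone in 13.7% of 131 and cells with Jag1 alone in 5.00% of 120. All 3 ligands were read in 204 cells, where 165 were expected from the single shares within plates. They were read together in 42.1% of arterial-like, 33.7% of angiogenic-like, 8.40% of venous-like and 12.1% of capillary-marker cells. No ligand at all was read in 3.14% of arterial-like cells and in 25.2% of venous-like cells.

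The genes most like each member over the 1187 cells were taken from 10013 genes read in at least 10% of cells, by Pearson r of plate-centred log2(CPM + 1). For Hey1 they were Alpl (0.41), which encodes tissue-nonspecific alkaline phosphatase, Bmx (0.39), an arterial kinase, and Sema3g (0.39), an arterial semaphorin. The least like was Tmsb10 (-0.42), which encodes an actin-binding thymosin and was also lowest for Notch1, Notch4 and Jag2. For Jag2 the 3 were Alpl (0.34), the connexin gene Gja4 (0.28) and Col18a1 (0.28), and for Jag1 they were Col18a1 (0.24), Cd24a (0.23) and Alpl (0.22), with Itm2a lowest (-0.23). For Notch4 they were Egfl8 (0.24) and Agpat1 (0.20), which lie 24846 and 15759 bases from it on chromosome 17, and the netrin receptor gene Unc5b (0.20).

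For Dll4 the overlapping Gm14207 led, followed by Ivns1abp (0.27), a capillary marker in the lists used here, and Gm10138 (0.24), with the taurine transporter gene Slc6a6 lowest (-0.18). For Notch1 the 2 overlapping genes led, then Sema3g (0.18). For Nrarp the overlapping Gm38287 led, then Meox1 (0.20; plates -0.05 to 0.34) and Fscn1 (0.18; plates -0.03 to 0.26). For Hey2 the leading genes, Clu, Atp2b4 and Gja4, had an r of 0.17 to 0.21 that rests on 10 cells.

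Hes1 alone of the 9 was most like immediate early genes, which are induced within minutes of a stimulus. Its 3 nearest genes were Fos (0.33; plates 0.26 to 0.39), Zfp36 (0.33) and Nr4a1 (0.33), ahead of Jun, Junb and Dusp1 (0.31 to 0.32). The nearest Notch gene to Hes1 was Notch1, at rank 183 among 10020 genes (0.10). The other members ranked ran from 500 (Hey1) to 8098 (Notch4). As a description of the same likeness, Hes1 was read in 41.2%, 51.1%, 70.0% and 81.5% of cells that had 0, 1, 2 and 3 of Fos, Zfp36 and Nr4a1, and its level in those cells was 64.7, 101, 182 and 293 CPM. Other members were also read more often in cells with 3 of these genes than in cells with 0. Jag1 was read in 56.8% and 40.3%, Jag2 in 60.5% and 44.2%, Hey1 in 27.5% and 19.7%, Nrarp in 15.2% and 9.01%, and Notch1 in 74.0% and 71.7%. Median genes per cell were 4636.5 and 4272, and their part in these shares was not tested. Fos, Zfp36 and Nr4a1 were highest on plate 523, at 995, 492 and 376 CPM, against 855, 350.3 and 271 CPM or less on the other plates. Junb and Dusp1 were also highest on plate 523, at 316 and 1101 CPM, against 285 and 1063 CPM or less on the other plates. Jun was highest on plate 522 (879 CPM, against 787 CPM on plate 523), and so was Junos, which ranked 7 (82.3 and 67.5 CPM).

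Of 50 other pathway genes listed, 29 reached 20 CPM, 6 lay at 5 to 20 CPM and 15 below 5 CPM. Egfl7, an endothelial secreted protein that binds Notch receptors, had the most reads, at 1502 CPM, followed by the receptor protease Adam10 (326 CPM), the Notch-modifying sugar transferase Mfng (208 CPM) and the gamma-secretase subunit Ncstn (165 CPM). Of the remaining receptors, Notch2 stood at 24.5 CPM and Notch3, a mural cell receptor, at 1.93 CPM. The ligand gene Dll1 stood at 9.17 CPM, with 4.81 CPM in arterial-like and 16.8 CPM in venous-like cells, and Dll3 at 0.241 CPM. The DNA-binding partner Rbpj stood at 42.1 CPM. Of 31 genes measured in arterial-like or venous-like cells, 0 were at least 2-fold higher in arterial-like cells and 1 was lower, Aph1a of gamma-secretase (59.8 against 128 CPM, log2 ratio -1.08), with a median log2 ratio of 0.17. Among genes outside the clustering set those shares were 6.41% and 5.70%. Between plates, 1 of the 29 was 2-fold apart, Dtx3, against 11.8% of all genes.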

How the data were processed

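The file the authors deposited gives raw read counts, as whole numbers, of 46517 genes in each of 1187 cells. The submitters' processing notes list GRCm38 and mm10 as builds and TopHat2 2.1.1, SAMtools 0.1.18, Subread 1.4.6-p5 and featureCounts as tools. Whether counting used strand is not stated there. No cell failed the filter of 50000 reads and 1000 genes, and no doublet caller was run. Levels are CPM of summed counts. Shares and pairs use cells thinned to 100000 reads. Cells were clustered with scanpy 1.11.5 (Leiden, resolution 1, 15 neighbours, 30 components) on 2000 of 8634 candidate genes, without genes over 2-fold apart between plates. Principal components were computed in double precision and rounded, because cluster membership otherwise moved with the number of processor threads. Classes were named from marker lists. Ratios have a prior of 1 CPM. The planned comparison of Pdgfb ret/ret with Pdgfb ret/+ cells was not made, since no column could be matched to a label. The 9 genes and the lists were chosen with earlier results of these data known. All 9 genes are described; the genes most like each were the 3 with the highest and the 1 with the lowest r, and of the other pathway genes those with the highest CPM and any receptor or ligand could be named (Rbpj, Aph1a and Dtx3, and Jun, Junb, Dusp1 and Junos, were named after their values were seen). Alternative scalings used edgeR 4.0.16 and DESeq2 1.42.0 factors. Pair and ratio computations were tested on simulated data.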

Additional observations from a re-analysis of the deposited data

Results flagged for a closer look

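Hes1 stood at 253.2 CPM on plate 523, far above the other 3 plates (152.1 CPM on plate 524, 157.7 on plate 521 and 147.2 on plate 522). The gap to the next plate was 0.900 of the whole range, above Dixon's 95% critical value for 4 values. The levels of all 9 genes were checked in this way, and chance flags about 1 in 20 such groups. Of the genes ranked 1 to 7 by likeness to Hes1, Fos, Zfp36, Nr4a1, Junb and Dusp1 were also highest on plate 523. Jun (787 CPM there, 879 CPM on plate 522) and Junos were not. The part of these genes was not tested.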

How the results depend on the processing

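No paired analysis was possible because the columns carry no genotype or replicate number. The count of genes 2-fold apart between plates was 2, 1 among genes at 20 CPM or more, and 1 to 2 when 1 plate was left out. The count of pairs at 1.2 times the expected number was 8, and 5 within plate and cluster, a setting added after the data had been seen; it was 11 at 3 or more reads. Without Hey2 it was 4, and 1 within plate and cluster, 2 with no thinning and 6 at 3 or more reads. The count of genes with r of 0.2 or more with arterial markers was 5, and 2 by Spearman's rho, whose ranks partly follow plate for genes with many zeros. Arterial-like over capillary-marker cells gave 3 genes, and 4 to 5 when 1 plate was left out. Arterial-like over venous-like cells gave 6 genes, and 5 to 7 over the 11 alternatives that had both classes. Of the class contrasts, only arterial-like over venous-like and over capillary-marker cells were repeated. No called value among those repeated changed sign, which the log2 ratios of highest over lowest plate cannot do. No venous-like cluster was found at resolution 0.5 or without plate 523 or 524, so these gave no value. No angiogenic-like cluster was found without plate 522 or when genes over 2-fold apart between plates were kept. Elsewhere that class had 39 to 348 cells, against 83, and its ratios to other classes were not repeated under the alternatives. The arterial-like class had 58 to 176 cells over the alternatives, against 159. Of single values, 659 stayed within the limit set for them and 52 moved beyond it. The limit was the spread between plates for most. It was a fixed 0.5 for log2 ratios between plates, and a factor of 1.5 for the pair count without Hey2. In arterial-like over venous-like cells, Hey1 had a log2 ratio of 4.65 to 8.47 and Hes1 one of -0.46 to 0.90, and for both the cause was not tested. Levels under a few CPM, as for Hey2, are limited by depth.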

Other observations

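Clusters without a zonation name also differed in Notch genes, as did the capillary-marker clusters among themselves. The cluster levels that follow are pooled over plates, over which the clusters were spread unevenly. Cluster 1 had 104, 74, 10 and 4 cells on plates 521 to 524, so cluster and plate are mixed in its levels. Dll4 stood at 292 CPM in the unnamed cluster 6, against 116 CPM in cluster 5 and 163 CPM in cluster 1, whereas Jag2 stood at 49.9 CPM in cluster 6, 106 CPM in cluster 5 and 48.0 CPM in cluster 1. Hes1 stood at 325 CPM in cluster 2, against 150.2 CPM in cluster 0 and 184 CPM in cluster 3. Nrarp stood at 25.7 CPM in cluster 3, against 16.6 CPM in cluster 0 and 8.21 CPM in cluster 2. On plates 521 and 522 its level was higher in cluster 2 than in cluster 0, the reverse of the pooled order. Cells with Jag1 and Jag2 but no Dll4 numbered 124, with 129 expected, and 27.4% of them were arterial-like and 14.5% venous-like. Cells with Dll4 and Jag1 but no Jag2 numbered 117, with 153 expected, and 3.42% of them were arterial-like and 5.98% venous-like.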
